A study of Mus musculus with 12 samples.

Results

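The Schlafen family is a group of interferon-responsive genes that lie side by side in the mouse genome, and 6 of its members, Slfn1, Slfn2, Slfn4, Slfn5, Slfn8 and Slfn9, were described here out of 54232 genes counted. They were taken by symbol, after Ensembl gene IDs were matched to GENCODE, and all 6 passed the filter on low counts (at least 10 counts in at least 2 libraries). The libraries were poly(A) RNA of bone marrow-derived macrophages (BMDMs) of C57BL/6 mice, cultured for 5 days and then kept for 24 h in 1 of 6 conditions with 2 libraries each. The study asked whether medium conditioned by neuroblastoma cells changes macrophages and what inhibition of the kinase Syk does to that change. NS cells had neither tumor-conditioned medium (TCM) nor inhibitor. NB9464 TCM came from a mouse neuroblastoma line with amplified MYCN, and NBT3L TCM came from a line without the amplification. R788 (fostamatinib), a Syk inhibitor, was given at 500 nM alone, with NB9464 TCM or with NBT3L TCM. The study's methods describe NB9464 TCM as collected in serum-free DMEM. How NBT3L TCM was made, what medium the cells without TCM had and what R788 was dissolved in are not given, so base medium and serum may differ along with TCM. The labels do not say that the paired libraries came from separate mice or cultures, so every p-value measures the spread between these libraries, which may be technical.

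Schlafen proteins are found in mammals and expanded in rodents, where most of the genes sit in a single cluster. They are sorted by length. The short ones (Slfn1, Slfn2) hold little beyond the core domain that defines the family, the intermediate ones (Slfn3, Slfn4) carry a further linker domain, and the long ones (Slfn5, Slfn8, Slfn9, Slfn14) add a helicase-like domain at the end of the protein. Several are induced by type I interferon through interferon-stimulated response elements in their promoters. In leukocytes the family is known for control of quiescence, proliferation and differentiation, and some long members bind or cut transfer RNA or restrict viruses.

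Total counts per library were between 44977847 and 56449685. One R788 library, SJ8, stood apart, with 16149 genes detected against 17275 to 18343 in the other 11, and the SD of the log2 difference within the R788 pair was 0.371 against 0.230 to 0.261 within the other 5 pairs. Most comparisons that use the R788 group are also given without SJ8, as values or ranges for the members and as values or calls for other genes. All 8 macrophage markers were detected in every group. The summed markers of T cells, B cells, dendritic cells and neuroblastoma cells stayed below 10 CPM (counts scaled to the library total) in every library. Those of 7 neutrophil markers were higher and moved with the groups, at 118 to 127 CPM in NS, 96.6 to 123 with R788, 170 to 176 in NB9464 TCM, 191 to 196 in NBT3L TCM and 145 to 158 in the libraries with TCM + R788, with 1 or 2 of Ly6g, Mpo and Elane at 0 in every group but NS. Their part in the Schlafen levels was not tested. Syk itself, the target of R788, was present throughout, with 14546 to 44194 normalized counts, and differed between groups. Its mean was 14987 in NS, 17972 with R788 alone, 33935 in NB9464 TCM and 37341 in NBT3L TCM. With R788 added to these media it was 42437 (NB9464) and 44023 (NBT3L). The part of these Syk levels in the R788 effects was not tested.

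The 6 genes occupy 238.9 kb of chromosome 11 on GRCm38 (mm10), from 82951349 to 83190216, in the order Slfn5, Slfn9, Slfn8, Slfn2, Slfn1, Slfn4. Slfn5 (ENSMUSG00000054404, 82951349 to 82964840), Slfn2 (ENSMUSG00000072620, 83065112 to 83070678), Slfn1 (ENSMUSG00000078763, 83116849 to 83122670) and Slfn4 (ENSMUSG00000000204, 83175186 to 83190216) are on the plus strand. Slfn9 (ENSMUSG00000069793, 82978390 to 82991830) and Slfn8 (ENSMUSG00000035208, 83002158 to 83020810) are on the minus strand, with the pseudogene Slfn10-ps beside them. Since paralogs can share reads, every stretch of 150 bases of each gene's exons was compared with all other transcripts. None of Slfn1, Slfn2, Slfn4 or Slfn8 was shared at that length. Of Slfn9, 1.46% was shared with Slfn10-ps, and of Slfn5, 5.46% was shared with its antisense gene Slfn5os, which had at most 3 counts in any library. At 75 bases the shared part of the 6 genes was between 0% and 8.22%. Of Slfn2, 1.70% was shared at that length, with Slfn4, and of Slfn4, 3.12%, with Gm11427, Slfn3 and Slfn2. Whether counting used the strand or reads with several places was not stated. A small part of the counts of Slfn2, Slfn4, Slfn5, Slfn8 and Slfn9 is therefore uncertain.

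The start regions of the genes are shown because the members that moved together differ in them. RefSeq windows of 250 bases before and 50 after the start site (GRCm38.p6) were found for all 6 genes. The core of the interferon-stimulated response element, searched as a GAAA word, 2 bases of any kind and another GAAA word on either strand of the window, was present in 3.44% of all 32851 windows of this length. It was present in the windows of Slfn5, Slfn8 and Slfn9 and absent from those of Slfn1, Slfn2 and Slfn4. It was also absent from those of Slfn3, an intermediate member, and of Slfn14, a long member that was hardly detected. In the stretches below, written 5′ to 3′ on the strand of the gene, capitals mark the core.
Slfn5, chr11:82951937-82951966, plus strand: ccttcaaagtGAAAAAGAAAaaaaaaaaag
Slfn8, chr11:83020811-83020910, minus strand: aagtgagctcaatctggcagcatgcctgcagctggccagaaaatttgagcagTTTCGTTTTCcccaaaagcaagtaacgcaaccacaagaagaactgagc
Slfn9, chr11:82991831-82991930, minus strand: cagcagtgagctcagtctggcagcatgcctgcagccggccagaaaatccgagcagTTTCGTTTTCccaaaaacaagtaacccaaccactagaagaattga
The core began 48 bases before the start site in Slfn8, 45 bases before it in Slfn9 and 155 bases before it in Slfn5, and its letters were the same in Slfn8 and Slfn9, where it reads on the opposite strand as TTTC words. The windows of these neighbouring genes were 80.8% identical over 312 aligned columns, whereas the other pairs of members were between 46.5% and 53.0% identical. RefSeq also gives Slfn8 a second start site, not used above, from which the same core began at -136. The Slfn5 stretch lies inside the GENCODE gene but in none of its exons, because GENCODE places a start of Slfn5 further upstream.

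The windows of the remaining 3 genes were compared with each other. They had in common an 11-base stretch, shown in capitals, that contains the letters ACTTCC recognised by many ETS factors.
Slfn1, chr11:83116720-83116819, plus strand: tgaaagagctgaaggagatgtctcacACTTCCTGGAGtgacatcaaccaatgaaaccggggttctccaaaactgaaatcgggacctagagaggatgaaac
Slfn2, chr11:83065012-83065111, plus strand: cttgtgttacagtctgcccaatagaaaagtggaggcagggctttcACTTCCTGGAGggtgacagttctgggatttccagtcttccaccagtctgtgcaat
Slfn4, chr11:83175086-83175185, plus strand: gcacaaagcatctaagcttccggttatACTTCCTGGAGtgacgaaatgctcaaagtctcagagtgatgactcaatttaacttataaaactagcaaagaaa
The stretch began 74 bases before the start site in Slfn1, 73 in Slfn4 and 55 in Slfn2, and on either strand it was present in 24 of all 32851 windows (0.0731%). ACTTCC or its reverse complement GGAAGT alone was present in 23.8% of windows. Slfn1 and Slfn4 were identical over 15 bases there. Part of the stretch was also in the windows of other Schlafen genes. Slfn3 had 9 bases of it, ACTTCCTGG, at -42 from the start site, and Slfn14 had 9, TTCCTGGAG, at -127. The letters of a gamma-activated site, TTCNNNGAA, which read the same on both strands, were in none of the 6 windows and in 8.3% of all windows. These are matches of letters in short windows, chosen by comparing these genes, and binding was not measured.

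R788 lowered all 6 Schlafen genes in each of the 3 media. All 18 effects, 6 genes in 3 media, were called lower (DESeq2, adjusted p under 0.05 over 16281 genes), and in all 18 both libraries with R788 lay below both libraries without it. Among all genes tested, 15.0% were called lower with R788 in NS cells, 8.7% in NB9464 TCM and 7.24% in NBT3L TCM. The size ran from a log2 fold change of -0.19 for Slfn2 in NB9464 TCM to -3.26 for Slfn1 in the same medium, and the median over the 6 genes was -1.26 in cells without TCM, -1.55 in those with NB9464 and -1.70 in those with NBT3L TCM, against medians near 0 over all genes tested (0, -0.003 and 0.003). edgeR called the same 18 effects. The values by library follow, from the short to the long members.

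**Figure D1:**
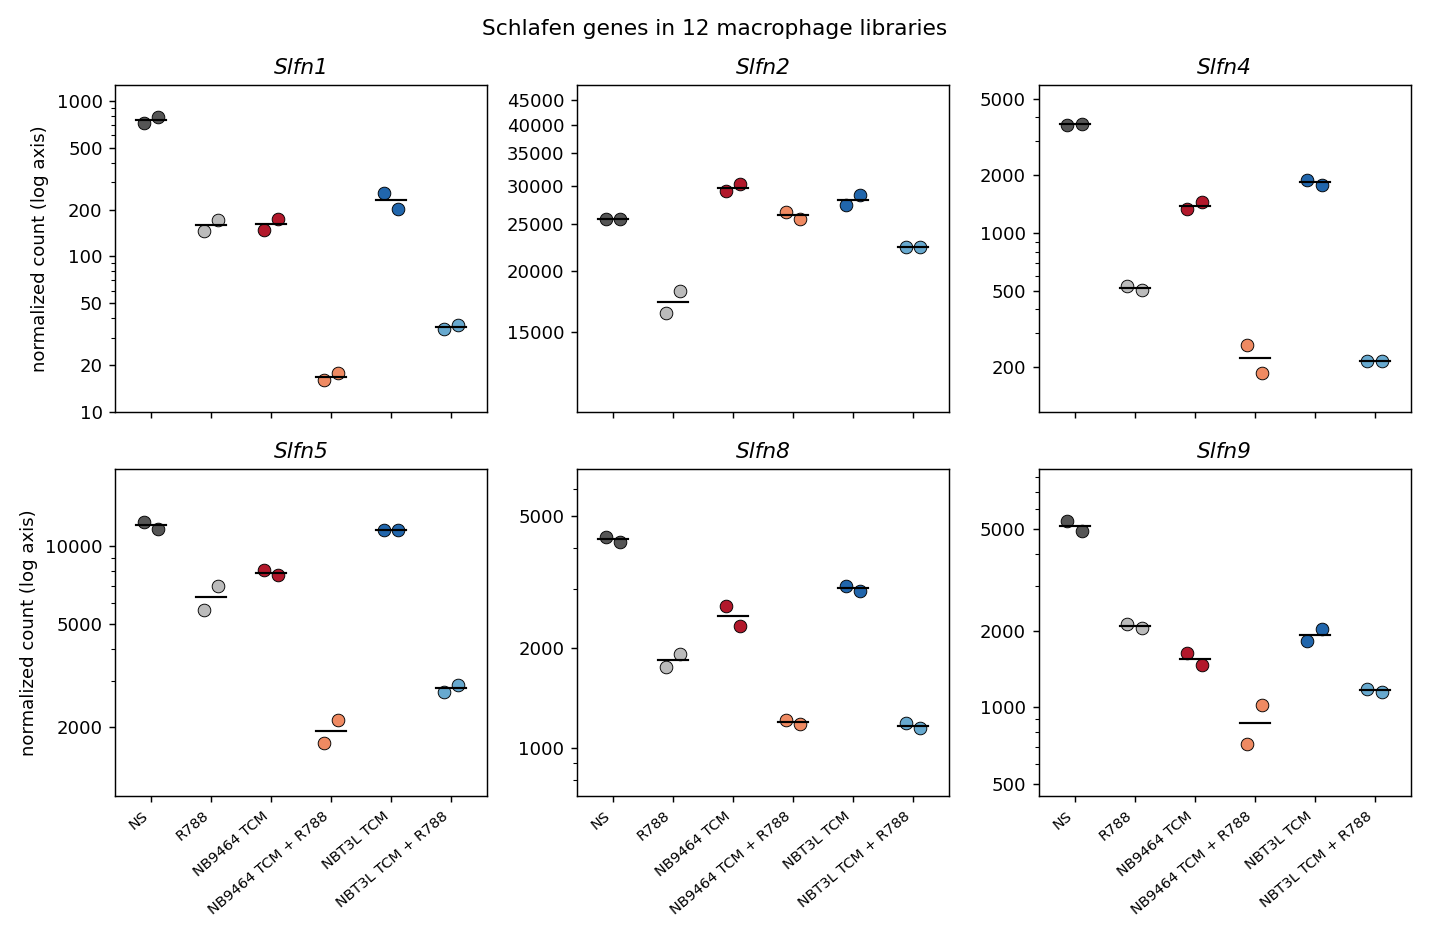
Normalized count (log axis, a separate scale for each gene) of the 6 Schlafen genes in 12 libraries; each point is a library and each bar the mean of a group (n = 2). All panels but that of Slfn2 step down from NS to TCM + R788, in Slfn1 from 757 to 16.8 or 35.1, while Slfn2 is lowest with R788 alone, at 17330.0.

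Slfn1, the founding member, was described as a brake on T cell growth. Its normalized counts were 723 and 791 in NS, 147 and 174 in NB9464 TCM, and 255 and 202 in NBT3L TCM. With R788 they were 145 and 172 without TCM, 15.9 and 17.8 with NB9464 TCM, and 33.9 and 36.2 with NBT3L TCM. All TCM and R788 libraries lay below NS, the R788 and NB9464 TCM libraries overlapped, and the combinations were lowest by far. R788 changed Slfn1 by a log2 fold change of -2.25 ± 0.27 without TCM (SE, DESeq2 adjusted p = 1.38e-15), -3.26 ± 0.37 with NB9464 TCM (8.93e-17) and -2.70 ± 0.32 in NBT3L TCM (1.3e-15). Its mean in NB9464 TCM + R788 was 44.9-fold below the NS mean and in NBT3L TCM + R788 21.6-fold below, the widest range of the 6 genes. The raw counts there were 16 in both NB9464 TCM + R788 libraries and 32 and 36 in NBT3L TCM + R788, so counting error is larger for this gene than for the others.

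Slfn2, the other short member, is needed for T cells and monocytes to stay quiescent in mice. It was by far the most abundant of the 6 and moved least. Its normalized counts were 25626 and 25594 in NS, 29190.0 and 30167 in NB9464 TCM, and 27356 and 28635 in NBT3L TCM. With R788 they were 16456 and 18204 without TCM, 26535 and 25659 with NB9464 TCM, and 22445 and 22497 with NBT3L TCM. Unlike the other members it was lowest with R788 alone. Its levels with TCM lay above NS when R788 was absent, while those with NBT3L TCM + R788 lay below NS. The log2 fold change with R788 was -0.56 ± 0.056 without TCM (SE, DESeq2 adjusted p = 3.32e-22), -0.19 ± 0.056 with NB9464 TCM (0.00736) and -0.32 ± 0.056 in NBT3L TCM (4.12e-07). The small fall in NB9464 TCM was not called without NB9464 TCM library SJ4 (-0.16, adjusted p = 0.108) or without NB9464 TCM + R788 library SJ10 (-0.16, adjusted p = 0.147).

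Slfn4, the intermediate member of the 6, is expressed in myeloid cells, falls as monocytes become macrophages and marks a population of suppressive myeloid cells in the inflamed stomach. Its normalized counts were 3669 and 3692 in NS, 1328 and 1445 in NB9464 TCM, and 1879 and 1789 in NBT3L TCM. With R788 they were 529.9 and 503 without TCM, 262 and 187 with NB9464 TCM, and 215 and 215 with NBT3L TCM. No library with R788 exceeded 529.9, and none without it was below 1328. The log2 fold changes with R788 were -2.83 ± 0.13 without TCM (SE, DESeq2 adjusted p = 1.71e-96), -2.62 ± 0.15 with NB9464 TCM (7.79e-69) and -3.09 ± 0.15 in NBT3L TCM (2.56e-95). Averaged over the media, the fall of Slfn4 was -2.85 ± 0.082, next to -2.74 ± 0.19 for Slfn1.

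Slfn5, a long member found in the nucleus, is known as an interferon-induced repressor of transcription. Its normalized counts were 12403 and 11655 in NS, 8047 and 7729.8 in NB9464 TCM, and 11551 and 11473 in NBT3L TCM. With R788 they were 5672 and 6994 without TCM, 1727 and 2123 with NB9464 TCM, and 2732 and 2912 with NBT3L TCM. The libraries with TCM + R788 lay apart from all others, while NBT3L TCM alone lay just below NS. The log2 fold changes with R788 were -0.93 ± 0.099 without TCM (SE, DESeq2 adjusted p = 3.7e-19), -2.04 ± 0.10 with NB9464 TCM (5.22e-87) and -2.03 ± 0.10 in NBT3L TCM (2.83e-88).

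Slfn8 is a long member that has been tied to autoimmune inflammation of the nervous system in mice. Its normalized counts were 4325 and 4164 in NS, 2663 and 2319 in NB9464 TCM, and 3076 and 2972 in NBT3L TCM. With R788 they were 1750.5 and 1911 without TCM, 1212 and 1175 with NB9464 TCM, and 1189 and 1142 with NBT3L TCM. The order of groups was that of Slfn4, with the same overlap of the TCM + R788 groups at the bottom. The log2 fold changes with R788 were -1.21 ± 0.098 without TCM (SE, DESeq2 adjusted p = 1.74e-33), -1.06 ± 0.10 with NB9464 TCM (6.29e-24) and -1.38 ± 0.10 in NBT3L TCM (3.47e-40).

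Slfn9, the neighbour of Slfn8 and its closest match in the start region, had normalized counts of 5393 and 4929.7 in NS, 1636 and 1471 in NB9464 TCM, and 1823 and 2036 in NBT3L TCM. With R788 they were 2124 and 2053 without TCM, 718 and 1019 with NB9464 TCM, and 1187 and 1146 with NBT3L TCM. Here the TCM groups lay below R788 alone, whereas in Slfn4, Slfn5 and Slfn8 they lay above it. The log2 fold changes with R788 were -1.31 ± 0.13 without TCM (SE, DESeq2 adjusted p = 5.63e-21), -0.84 ± 0.14 with NB9464 TCM (3.62e-08) and -0.73 ± 0.14 in NBT3L TCM (2.87e-06).

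Without library SJ8, SJ7 was the only library with R788 alone, and the spread came from the other groups. All 6 genes were still lower in R788 against NS. The log2 fold changes were then -2.38 for Slfn1, -0.64 for Slfn2, -2.80 for Slfn4, -1.09 for Slfn5, -1.28 for Slfn8 and -1.28 for Slfn9. The contrast that averages the R788 effect over the media, with 6 libraries on each side, called all 6 lower, where 16.2% of all genes tested were called lower. Without SJ8 the averaged values were -2.78 for Slfn1, -0.38 for Slfn2, -2.84 for Slfn4, -1.72 for Slfn5, -1.24 for Slfn8 and -0.95 for Slfn9, all called lower.

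**Figure D2:**
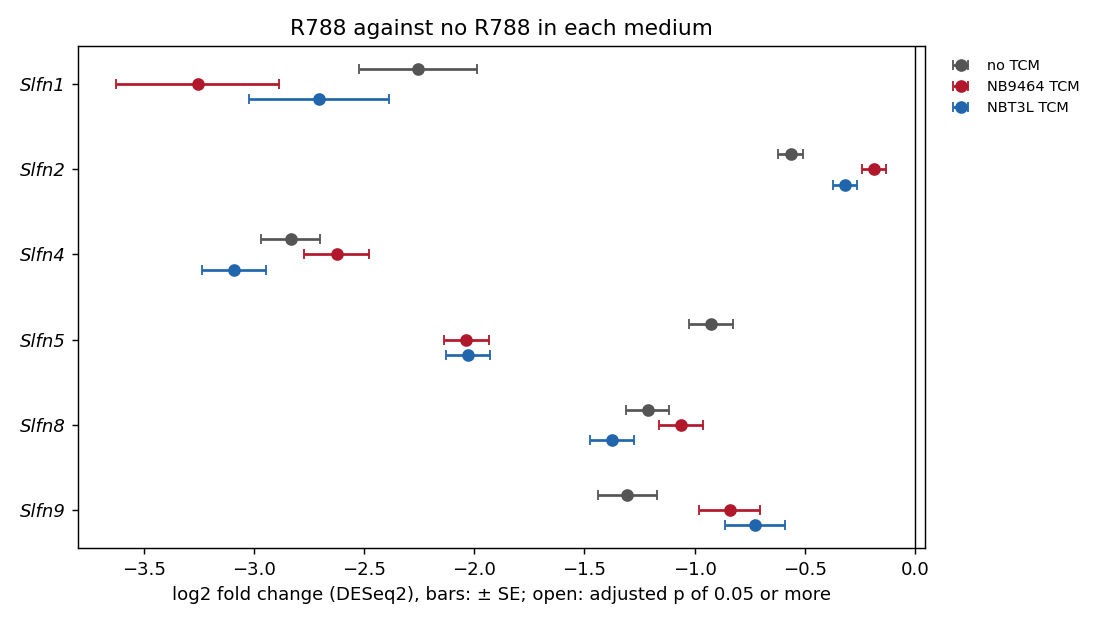
Log2 fold change with R788 (x axis; bars ± SE from DESeq2) for each Schlafen gene in cells without TCM, with NB9464 TCM and with NBT3L TCM, all 18 values past the threshold. Slfn1 and Slfn4 lie near or below -2.25 in every medium, Slfn5 shifts from -0.93 to about -2.03 with TCM, and Slfn2 lies nearest to 0.

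TCM alone lowered 5 of the 6 genes with NB9464 and 4 with NBT3L. With NB9464 TCM, Slfn1 (log2 fold change -2.24 ± 0.27), Slfn9 (-1.73 ± 0.13), Slfn4 (-1.41 ± 0.13), Slfn8 (-0.77 ± 0.097) and Slfn5 (-0.61 ± 0.099) were called lower and Slfn2 (0.21 ± 0.056) higher (SE, DESeq2, adjusted p between 9.02e-37 and 0.000624). Of all genes tested, 16.9% were called lower and 17.2% higher in that comparison. With NBT3L TCM, Slfn1 (-1.73 ± 0.27), Slfn9 (-1.42 ± 0.13), Slfn4 (-1.01 ± 0.13) and Slfn8 (-0.49 ± 0.097) were called lower, against 17.3% of all genes tested. The order of these 4 was the same in both media, with Slfn1 first and Slfn9 next. Slfn5 was not called with NBT3L TCM (-0.063, 95% interval -0.26 to 0.13, adjusted p = 0.697). Slfn2 was just short of the threshold there (0.13, 95% interval 0.019 to 0.24, adjusted p = 0.0575). It was called higher without either R788 library, SJ7 (0.13, adjusted p = 0.0043) or SJ8 (0.12, adjusted p = 0.0067), which that comparison uses only for the shared estimate of spread, and also with only the groups compared (0.14, adjusted p = 0.00741) or under a filter that keeps genes averaging 50 or more counts (0.13, adjusted p = 0.0478). The summed counts of 3 monocyte markers (Ly6c2, Ccr2, F13a1) moved with TCM as well, from 275 to 286 CPM in NS to between 141 and 143 in NB9464 TCM and between 83.9 and 88.3 in NBT3L TCM, with all 3 detected in every group, and their part in the Schlafen levels was not tested. With R788 alone that sum was 301 to 317. In bulk RNA, fewer cells of a kind and less transcript per cell cannot be told apart.

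In the presence of R788, either TCM lowered the 5 genes that NB9464 TCM lowered without it. NB9464 TCM + R788 against R788 gave log2 fold changes of -3.24 ± 0.37 for Slfn1, -1.72 ± 0.10 for Slfn5, -1.27 ± 0.14 for Slfn9, -1.20 ± 0.15 for Slfn4 and -0.62 ± 0.10 for Slfn8, all called lower, and 0.59 ± 0.056 for Slfn2, called higher (SE, DESeq2, adjusted p between 7.59e-63 and 7.52e-09). In this comparison 19.6% of all genes tested were called lower and 20.7% higher. NBT3L TCM + R788 against R788 gave -2.18 ± 0.32, -1.17 ± 0.10, -0.84 ± 0.14, -1.26 ± 0.15 and -0.65 ± 0.10 for the same 5 genes in that order, and 0.37 ± 0.056 for Slfn2 (adjusted p between 7.41e-30 and 4.59e-09), where 19.9% of all genes were called lower and 21.5% higher. Without SJ8 all 12 of these calls remained, with values from -3.11 for Slfn1 to 0.66 for Slfn2 with NB9464 TCM and from -2.06 to 0.44 with NBT3L TCM. These comparisons and the R788 effects share libraries, so their values are given side by side only.

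**Figure D3:**
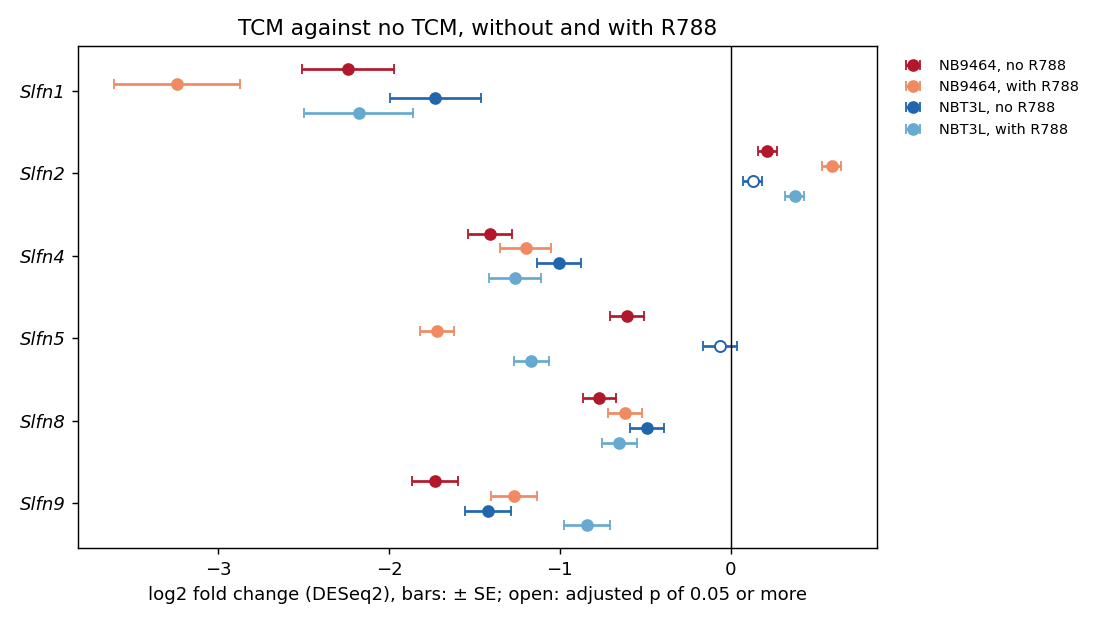
Log2 fold change with TCM against no TCM (x axis; bars ± SE from DESeq2) for each Schlafen gene, without R788 (NB9464 or NBT3L TCM against NS) and with it (against R788); open circles were not called. Slfn5 moves from -0.61 and -0.063 without R788 to -1.72 and -1.17 with it, and Slfn2 is the one gene to the right of 0.

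Whether the R788 effect differed between TCM and no TCM was tested by interaction. For NB9464 TCM, 2 of the 6 genes passed, where 12.5% of all genes tested did. For NBT3L TCM it was 3 of 6, where 10.1% did. Slfn5 fell more with R788 in either TCM than without, with interactions of -1.11 ± 0.14 (NB9464 TCM, DESeq2 adjusted p = 4.84e-13) and -1.10 ± 0.14 (NBT3L TCM, 5.84e-13) on the log2 scale. The fall of Slfn5 in TCM was thus 2.16-fold and 2.15-fold deeper than in NS cells. Slfn2 went the other way, falling less in NB9464 TCM (0.38 ± 0.079, adjusted p = 4.12e-05) and in NBT3L TCM (0.25 ± 0.079, adjusted p = 0.0187). Slfn9 also fell less in NBT3L TCM (0.58 ± 0.19, adjusted p = 0.0231) and did not pass in NB9464 TCM (0.46, 95% interval 0.088 to 0.84, adjusted p = 0.0821). The calls of Slfn5 held without any 1 library, and without SJ8 they were -0.95 and -0.94. Those of Slfn2 were 0.45 and 0.32 without SJ8, both called. The call of Slfn2 in NBT3L TCM was lost with only the groups compared (0.24, adjusted p = 0.0573) and without SJ1, SJ2, SJ5, SJ11 or SJ12 (values from 0.22 to 0.25, adjusted p from 0.0642 to 0.144), and that of Slfn9 without SJ1, SJ5, SJ8, SJ11 or SJ12 (values from 0.503 to 0.603, adjusted p from 0.0553 to 0.14). Without SJ9 the Slfn9 interaction in NB9464 TCM was called (0.69, adjusted p = 0.00137). Counts of Slfn9 summed with those of Slfn10-ps gave 0.45 in NBT3L TCM (adjusted p = 0.0914).

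For Slfn1, Slfn4 and Slfn8 the interaction was not called in either medium. For Slfn4 the intervals were -0.18 to 0.599 (NB9464 TCM) and -0.65 to 0.13 (NBT3L TCM), for Slfn8 -0.12 to 0.43 and -0.44 to 0.11. For Slfn1, with its low counts, they were wide, -1.90 to -0.11 and -1.26 to 0.37 (adjusted p = 0.125 and 0.566), so that in NB9464 TCM the interval lay below 0 but the adjusted p missed the threshold. Without SJ8 the interactions with NB9464 and NBT3L TCM were -0.87 and -0.32 for Slfn1, 0.17 and -0.30 for Slfn4 and 0.22 and -0.098 for Slfn8, none of them called (adjusted p between 0.254 and 0.795). The difference in the R788 effect between the conditioned media was called for 0 of the 6 genes by DESeq2 or edgeR, with 2 genes at an unadjusted p under 0.05 in each and 0.706% of all genes tested called by DESeq2.

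NB9464 TCM was compared with NBT3L TCM directly. Slfn5 (log2 fold change -0.55 ± 0.099, DESeq2 adjusted p = 1.33e-06), Slfn4 (-0.40 ± 0.13, 0.022) and Slfn8 (-0.28 ± 0.098, 0.0375) were called lower in NB9464 TCM, 3 of 6 against 5.72% of all genes tested. Slfn5 is the one of them that edgeR also called, with adjusted p = 0.0768 for Slfn4 and 0.0925 for Slfn8. In DESeq2, Slfn8 was also not called with all counts halved (-0.28, adjusted p = 0.0559) or with only the groups compared (-0.27, adjusted p = 0.0651). Slfn4 was not called without any 1 of SJ1 to SJ6 (values from -0.47 to -0.34, adjusted p from 0.0596 to 0.278), and Slfn8 without SJ1, SJ2, SJ4, SJ5, SJ6, SJ9, SJ10, SJ11 or SJ12 (from -0.305 to -0.19, adjusted p from 0.055 to 0.414). Slfn9 (-0.31, 95% interval -0.58 to -0.047) was not called, but was without SJ9 or SJ10 (-0.31 and -0.32, adjusted p = 0.0374 and 0.0368). Slfn1 (-0.51, 95% interval -1.05 to 0.033) and Slfn2 (0.084, 95% interval -0.025 to 0.19) were not called.

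With R788 in both, Slfn5 was again lower with NB9464 TCM (-0.55 ± 0.10, adjusted p = 2.9e-06), as was Slfn9 (-0.43 ± 0.14, adjusted p = 0.0243), and Slfn2 was higher (0.22 ± 0.056, adjusted p = 0.00221). These were 3 of 6 genes, against 9.62% of all genes tested in either direction. Slfn9 and Slfn2 were not called without SJ9 (-0.196 and 0.19), SJ11 (-0.404 and 0.21) or SJ12 (-0.46 and 0.21). Slfn1 had the widest difference of the 6 genes (-1.06, 95% interval -1.85 to -0.28), with its libraries apart, but was not called by DESeq2 (adjusted p = 0.0697). It was called by edgeR (-1.05, adjusted p = 0.0487) and under a filter that keeps genes averaging 50 or more counts (-1.06, adjusted p = 0.0464). Slfn4 and Slfn8 overlapped between these groups. The difference of Slfn5 between the conditioned media was -0.55 both without and with R788, and the interaction was -0.008 (95% interval -0.29 to 0.27).

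Scaled by exon length, Slfn2 made up most of the Schlafen transcript in every library. In NS its normalized count per kb was 15390.4 ± 13.5, against 1902 ± 83.6 for Slfn5, 1038 ± 27.7 for Slfn8, 929 ± 4.09 for Slfn4, 865 ± 54.9 for Slfn9 and 406 ± 25.7 for Slfn1 (SD, n = 2). The share of Slfn2 among the 6 genes was 74.6% and 75.3% in the NS libraries and 94.8% and 95.4% with NB9464 TCM + R788. The sum over the 6 genes was 20529 ± 150.0 per kb in NS and 20388 ± 332 in NB9464 TCM (SD, n = 2), so that the fall of 5 genes with that TCM was offset by Slfn2. With R788 alone the sum was 12429 ± 915, the lowest of the groups, and 11782 in SJ7 alone.

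**Figure D4:**
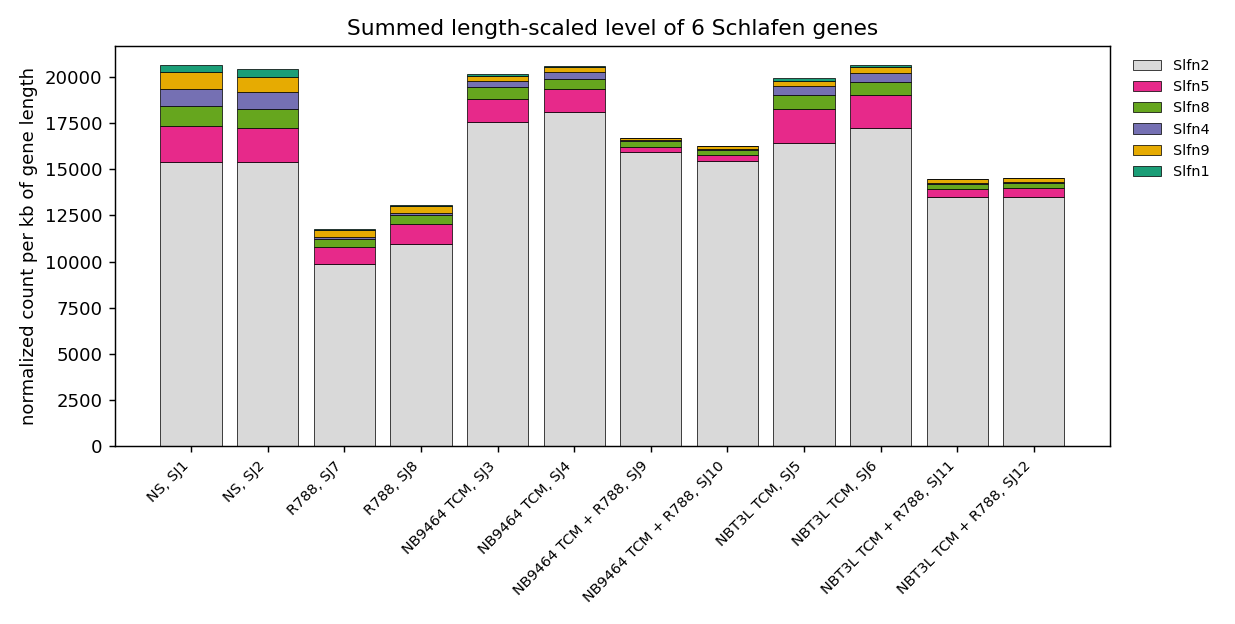
Normalized count per kb of exon length of the 6 Schlafen genes, stacked, in each of 12 libraries (y axis from 0). Slfn2 fills from 74.6% of the bar in library SJ1 to 95.4% in SJ9, and the bars of the R788 pair are the shortest.

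The remaining Schlafen genes were also measured. Slfn3, an intermediate member next to Slfn4, was called lower with R788 in all 3 media, with log2 fold changes of -1.25 ± 0.18, -1.17 ± 0.19 and -1.29 ± 0.19 for cells with no TCM, NB9464 TCM and NBT3L TCM (SE, DESeq2, adjusted p between 1.14e-10 and 1.26e-08). The pseudogene Slfn10-ps was called lower in all 3 as well (-1.03 ± 0.20, -0.78 ± 0.21 and -0.97 ± 0.21, adjusted p between 5.06e-06 and 0.00188). Without SJ8 both were still called lower in R788 against NS (-1.44 for Slfn3 and -0.95 for Slfn10-ps). Slfn3 was lower with both TCMs, while Slfn10-ps was not called with either. Slfn14 and the antisense Slfn5os had at most 6 counts in a library and were not tested, and the distant relative Slfnl1 on chromosome 4 was at 0 in all libraries but 2.

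Of the nearest tested genes without a Schlafen symbol on either side of the cluster, only Rffl was called with R788 when averaged over the media. The 3 nearest tested genes on the Slfn5 side are Nle1, Rad51d and Rffl. Nle1 (-0.18 ± 0.098) and Rad51d (-0.066 ± 0.13) were not called in the averaged R788 contrast and Rffl was called higher (0.35 ± 0.069). On the Slfn4 side, beyond Slfn3, AI662270 (-0.13 ± 0.053), Gm11427 (0.008 ± 0.083) and AA465934 (0.31 ± 0.55) were not called. However, AI662270 was called lower in R788 against NS (-0.29 ± 0.093, DESeq2 adjusted p = 0.00928). Gm11427 has no Schlafen symbol but is a pseudogene that shared 43 stretches of 150 bases with Slfn3, so it holds Schlafen sequence. Without SJ8, AI662270 was called lower in the averaged contrast too (-0.15, adjusted p = 0.0161), and the calls of the other 5 stayed as they were. Within the cluster, 3 tested genes have no Schlafen symbol. Of their 9 single-medium R788 effects 0 were called by DESeq2 or by edgeR, with 2 at an unadjusted p under 0.05 in each (both Gm11425, a processed pseudogene). With only the groups compared, 1 of the 9 was called. Under a filter that keeps genes averaging 50 or more counts, 3 of the 9 values remained, those of Gm11425. Low counts therefore limit these tests, and the missing calls do not show that these genes were unchanged by R788. Averaged over the media, Gm11425 was called lower (-0.74 ± 0.25, DESeq2 adjusted p = 0.0129), while 1190001M18Rik (1.22) and Gm20234 (-0.56) were not called. Of all 21 tested genes without a Schlafen symbol within 500 kb of either end, 1 was higher and 6 were lower in the averaged contrast. Of all genes tested, 13.4% were called higher and 16.2% lower there. The 6 were Ap2b1 and the chemokine genes Ccl5, Ccl9, Ccl6, Ccl3 and Ccl4, more than 100 kb from Slfn4.

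**Figure D5:**
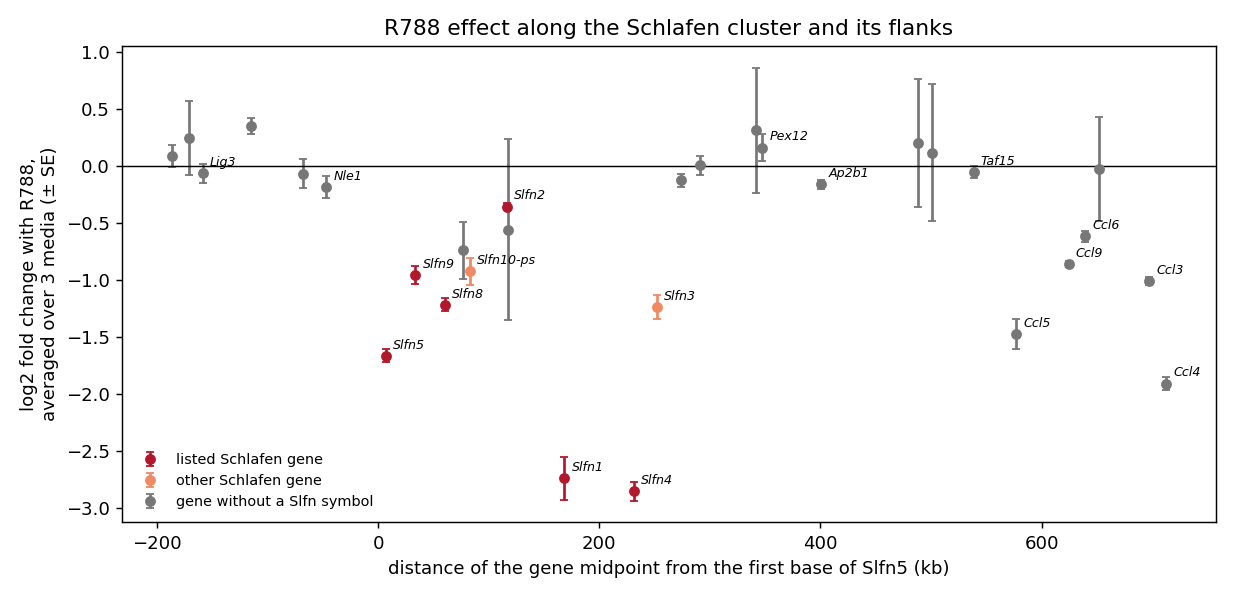
Log2 fold change with R788 averaged over 3 media (y axis; bars ± SE from DESeq2) against the distance of each gene's midpoint from the first base of Slfn5 in kb, for 30 genes with a mean of at least 10 normalized counts in the cluster and 500 kb on each side. Schlafen genes lie between -2.85 (Slfn4) and -0.36 (Slfn2), most genes between them and the chemokine genes lie near 0, and Ccl4 at the right edge reaches -1.91.

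Interferon-stimulated genes outside the family were counted for comparison. Of 42 such genes 41 were tested. R788 lowered 41 in NS cells, 39 in NB9464 TCM and 40 in NBT3L TCM, where 15.0%, 8.7% and 7.24% of all genes tested were called lower. The median log2 fold changes of these interferon-stimulated genes were -1.84, -1.74 and -1.87. The largest averaged falls were of Ifit3b (-3.10 ± 0.197), Ifit3 (-3.07 ± 0.11), Mx1 (-2.99 ± 0.12) and Ifit1 (-2.97 ± 0.083), which code for antiviral proteins (SE, DESeq2). Slfn1 and Slfn4 fell by about as much, and Slfn2 by less than every gene on that list, the smallest of which was -0.75. NB9464 TCM lowered all 41, and NBT3L TCM lowered 22 and raised 2. Among 18 tested genes of interferon production and signalling, 5 were higher and 6 lower with R788 (averaged), among them Irf7 (-2.69 ± 0.036), Stat2 (-1.30 ± 0.038) and Socs3 (-0.64 ± 0.105). Of 20 cell cycle genes, 17 were lower in the averaged contrast, with Ccnd1 at -1.28 ± 0.056 and Ccne2, Pcna and Mcm6 between -0.83 and -0.74. TCM lowered 18 (NB9464) and 19 (NBT3L) of these 20. In the averaged R788 contrast, 13.4% of all genes tested were called higher and 16.2% lower. Without SJ8, the averaged contrast called lower 41 interferon-stimulated genes, 6 genes of interferon signalling and 18 cell cycle genes.

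The genes whose levels ran most like each member were looked up among 10714 other genes averaging 100 normalized counts or more, by Pearson's r of log2 levels over the 12 libraries. These libraries fall into 6 groups, so r mostly compares group means and is given as a description. Slfn1 ran closest to Oasl2 (r = 0.992), Zranb3 and Ifi203, Slfn5 to Ddx58 (r = 0.986), Oas1a and Rnf213, and Slfn4 and Slfn8 to each other (r = 0.991), followed by Irgm1 and Ifitm3 for Slfn4 and Phf11d and Parp12 for Slfn8. Most of these are interferon-stimulated genes. Slfn9 ran closest to Mcm7 (r = 0.993), a subunit of the replicative helicase, then to Pdgfb and Angptl2. Slfn2 ran closest to Nifk (r = 0.976), which codes for a nucleolar protein, then to Myc and P2ry10b. Within the family, r between Slfn2 and the other 5 was between -0.061 and 0.41, and between any 2 of those 5 it was between 0.82 and 0.991.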

How the data were processed

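The deposited file gives raw read counts for each Ensembl gene, not scaled by the authors for depth or length. By their methods they mapped reads to mm10 with STAR and quantified with Salmon (versions 2.6.1d and 1.4.0 in the submitters' processing notes), though a gene length beside each count is the layout of featureCounts, so the counting program is unclear. The labels state paired reads and the methods single reads. The methods also describe triplicates, whereas the labels give 2 libraries per group. Even values made up 65.2% to 67.9% of counts from 1 to 40, so halved counts were tried too. Symbols came from GENCODE M21.

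The 16281 genes that reached 10 counts in 2 or more libraries were fitted with DESeq2 1.42.0 in R 4.3.3 as 6 group means, with Wald tests, unshrunken log2 fold changes and Benjamini-Hochberg adjustment over all genes per contrast. Normalized counts are counts divided by DESeq2's size factors. Alternatives were edgeR 4.0.16 (quasi-likelihood, TMM), TMM in DESeq2, other filters, only the groups compared, halved counts, a 2-fold minimum, summed paralog counts and each library left out. Each left-out library leaves its partner as the only one in that group, so calls then use the spread within the other groups. Other Schlafen genes, 4 genes per list with the largest averaged R788 change, the 3 most alike per member and the 3 nearest neighbours on each side are named. The members and lists were chosen with earlier results of these data known. The chemokine genes and Ap2b1 were named after their values were seen. A monocyte marker, left out of its sum, and a named gene of the interferon signalling list are not reported here.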

Additional observations from a re-analysis of the deposited data

Results flagged for a closer look

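For 5 results the R788 effect differed between media in a test of the difference itself (DESeq2 interaction, adjusted over all genes tested). Slfn5 fell more with R788 in NB9464 TCM than without TCM, by -1.11 on the log2 scale, and in NBT3L TCM by -1.10. Slfn2 fell less in NB9464 TCM, by 0.38, and in NBT3L TCM, by 0.25. Slfn9 fell less in NBT3L TCM, by 0.58. The values of Slfn2 and Slfn9 in NBT3L TCM each lost their call when certain single libraries were left out, as given above with those libraries, and that of Slfn2 also with only the groups compared (0.24, adjusted p = 0.0573).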

How the results depend on the processing

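Across 1502 recomputed single-gene values, 1418 kept their direction and side of the threshold, 69 lost their call, 9 gained one and 6 changed sign. With a 2-fold minimum, 4 genes instead of 6 were called for R788 in each of the 3 media, for the averaged R788 contrast and for NB9464 TCM + R788 against R788, 3 instead of 4 for NBT3L TCM against NS, 3 instead of 6 for NB9464 TCM against NS and for NBT3L TCM + R788 against R788, 0 instead of 3 for NB9464 against NBT3L TCM without and with R788, 1 instead of 2 for the interaction with NB9464 TCM and 1 instead of 3 for that with NBT3L TCM. edgeR called 1 gene for NB9464 against NBT3L TCM. The shares of all genes given above are from DESeq2 without a 2-fold minimum, so these counts cannot be set against them. With single libraries left out, the number called ran from 1 to 3 for NB9464 against NBT3L TCM, without and with R788, and from 1 to 3 for the interaction with NBT3L TCM. The sign changed only among values that were not called. Slfn4 ran from -0.21 to 0.28 for NB9464 TCM + R788 against NBT3L TCM + R788 and from -0.061 to 0.42 for the interaction with NB9464 TCM, and in the difference of R788 effects between the conditioned media Slfn5 ran from -0.16 to 0.14 and Slfn9 from -0.39 to 0.12. The sign changes came without SJ9, and for Slfn5 also without SJ3 or SJ12. The cause was not tested. Slfn9 between NB9464 TCM + R788 and NBT3L TCM + R788 was not called by edgeR (adjusted p = 0.0622), with only the groups compared (0.138) or with summed paralog counts (0.072), and its interaction in NBT3L TCM was not called by edgeR (0.0564). No paired analysis was possible because the labels do not link libraries of different groups by mouse, culture or batch. Having 2 libraries per group limits every test, and 16 to 36 raw counts limit the precision of Slfn1 in TCM + R788.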
